A study of Mus musculus with 8 samples.

Results

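Gene deserts are long stretches of the genome that hold no protein-coding gene. H2A.Z peaks were placed in deserts by position alone: a peak counted as a desert peak when it lay more than 100 kb from the span of every protein-coding gene and more than 1 kb from both ends of every lncRNA gene and pseudogene in the RefSeq annotation of the mouse mm10 build. Of the 79908 H2A.Z peaks in the 2 deposited lists, 6267 met this rule. They were 4541 of 48752 control peaks (9.31%) and 1726 of 31156 Znhit1-CKO peaks (5.54%). The rule used no measured value.

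The peaks came from chromatin immunoprecipitation and sequencing (ChIP-seq) with an antibody to H2A.Z, on cells freed by enzyme digestion from mouse testes at postnatal day 14. The 8 libraries form 4 groups of 2 replicates: immunoprecipitates of control testes, immunoprecipitates of Znhit1-CKO testes, and an input for each genotype. CKO is taken here as the conditional knockout of Znhit1, which the library protocol writes as Znhit1-sKO. The sources used here do not give the alleles of the controls, the Cre driver or the cells in which Znhit1 is deleted. The sample type is testis cells, a mixture, so fewer cells of a type and less H2A.Z per cell cannot be told apart. Each genotype has 1 peak list, with positions and no signal, and a further list holds the regions that the authors called different between the genotypes, with no direction. There is therefore no replicate error for any value below. The 95% intervals cover counting error over peaks only, and neighbouring peaks are not independent of each other.

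H2A.Z is a variant of histone H2A that is exchanged into nucleosomes by large remodelling complexes. ZNHIT1 is a subunit of one of them, the SRCAP complex. H2A.Z is best known at transcription start sites, and it also marks distal elements such as enhancers, which in deserts can lie far from the gene they act on. Deserts often flank genes for developmental transcription factors or for neuronal adhesion proteins.

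The genome sequence of the desert peaks was not used here, but RefSeq tables of the same assembly (GRCm38.p6) hold some sequence inside them. These are internal starts of long noncoding RNA (lncRNA) genes, more than 1 kb from the outer ends of their gene, and a few microRNAs. Of 247 lncRNA start windows in deserts (300 bases, from 250 before to 50 after the start), 12 windows of 11 genes (4.86%) were overlapped by a desert control peak, and 6 lay wholly inside one. A desert Znhit1-CKO peak overlapped 1 window, that of Gm36503. Over all desert control peaks, 22.1% were overlapped by a Znhit1-CKO peak and 77.9% were not. Of the 6 enclosed windows, 4 are shown, picked with their values known. The Gm36503 start kept a peak in Znhit1-CKO. The starts of Gm36520, Gm40261 and Gm31816 had no Znhit1-CKO peak, and their control peaks held a differential region. The enclosed windows of A930027H12Rik and 1810053B23Rik, not shown, lay under control peaks with neither. Each window shown is written 5′ to 3′ on the strand of its gene, with CpG dinucleotides in capitals.
Gm36503, chr6:16550083-16550382, plus strand: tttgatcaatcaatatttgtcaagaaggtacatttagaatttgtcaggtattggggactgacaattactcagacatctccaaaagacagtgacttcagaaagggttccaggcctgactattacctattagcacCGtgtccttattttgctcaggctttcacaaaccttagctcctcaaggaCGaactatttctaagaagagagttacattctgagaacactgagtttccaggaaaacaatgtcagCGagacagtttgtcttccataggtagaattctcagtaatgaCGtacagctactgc
Gm36520, chr3:130866796-130867095, plus strand: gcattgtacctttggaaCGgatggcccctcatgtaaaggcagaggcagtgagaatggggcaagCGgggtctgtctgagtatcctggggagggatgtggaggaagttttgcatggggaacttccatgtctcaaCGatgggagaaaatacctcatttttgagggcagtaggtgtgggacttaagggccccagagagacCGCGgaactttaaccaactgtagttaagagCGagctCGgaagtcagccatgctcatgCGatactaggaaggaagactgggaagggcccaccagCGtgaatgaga
Gm40261, chr5:4312803-4313102, plus strand: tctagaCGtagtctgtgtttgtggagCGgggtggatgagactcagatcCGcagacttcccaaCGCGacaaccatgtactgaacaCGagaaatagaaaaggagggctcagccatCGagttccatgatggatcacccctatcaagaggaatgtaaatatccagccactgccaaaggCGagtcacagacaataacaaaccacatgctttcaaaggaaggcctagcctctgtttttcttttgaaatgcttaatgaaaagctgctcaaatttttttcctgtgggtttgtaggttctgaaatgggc
Gm31816, chr9:47362708-47363007, minus strand: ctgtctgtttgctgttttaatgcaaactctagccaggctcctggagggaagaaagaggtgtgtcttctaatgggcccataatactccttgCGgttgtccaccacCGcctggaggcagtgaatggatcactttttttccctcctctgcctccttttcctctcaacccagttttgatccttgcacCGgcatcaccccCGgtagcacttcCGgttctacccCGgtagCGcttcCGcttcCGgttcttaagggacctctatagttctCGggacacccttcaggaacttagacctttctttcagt

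The Gm36503 start lay under a control peak of 992 bp, and that peak was overlapped by 2 Znhit1-CKO peaks of 350 and 453 bp. The control peaks over the Gm36520, Gm40261 and Gm31816 starts were 681, 874 and 1263 bp wide, and no Znhit1-CKO peak overlapped them. The Gm36503 window held 4 CpG dinucleotides and 40.3% G+C. Those of Gm36520, Gm40261 and Gm31816 held 9, 8 and 10 CpG dinucleotides and 53.0%, 45.7% and 52.0% G+C. The median desert lncRNA window held 2.00 CpG dinucleotides and 42.7% G+C, against 13 and 56.3% for windows of protein-coding genes. The motifs searched, 6 in all and on both strands, were the CREB/CREM site TGACGTCA, the NRF1 site GCGCATGCG, the CTCF core CCANNAGGG, the RFX half-site GTTNCCATG, the MYB site AACNGNC and TATAAA. Matches were allowed to overlap. The windows of Gm36503 and Gm31816 each matched the MYB letters once. At least 1 match was found in 34.4% of desert lncRNA windows and 32.8% of all windows. The other motifs had no match in the 4 windows shown.

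The desert peaks overlapped 5 microRNA genes, 3 in the control list and 2 in the Znhit1-CKO list, and none was under a peak in both. Over all desert peaks, 77.9% of control and 41.2% of Znhit1-CKO peaks had no overlapping peak in the other list. The microRNA genes are too few to be set against these shares. Mature sequences were found for 3 of the microRNA genes, and are shown with the seed (bases 2 to 8), which pairs with target messages, in capitals.
miR-137-5p: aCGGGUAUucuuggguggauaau
miR-137-3p: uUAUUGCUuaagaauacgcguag
miR-802-5p: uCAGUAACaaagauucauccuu
miR-802-3p: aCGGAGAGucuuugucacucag
miR-7214-3p: cUCAGUCCugaccccuugagcgca

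The 5 seeds all differ. Mir137 lay under a control peak of 526 bp at chr3:118433490-118434015, with no Znhit1-CKO peak and no differential region. A control peak of 266 bp at chr3:17795650-17795915 covered Mir124a-2 and the overlapping Gm51272. That peak was not called in Znhit1-CKO and held a differential region. Mir802 was the other way round: the end of its hairpin that carries miR-802-5p lay under a Znhit1-CKO peak of 395 bp at chr16:93369374-93369768 with no control peak. Mir7214 lay under a Znhit1-CKO peak of 535 bp at chr17:27316803-27317337, also with no control peak, and that peak held a differential region.

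Deserts lost a larger part of their H2A.Z peaks in Znhit1-CKO than the rest of the genome did. There were 38.0 Znhit1-CKO peaks for every 100 control peaks in deserts. When each desert was counted once per list in which it held a peak, the number was 66.5. That number counts deserts, so it cannot be set against the peak numbers of the other locations. Among other intergenic peaks, which lay more than 1 kb from a protein-coding gene and outside the deserts, there were 50.3 Znhit1-CKO peaks per 100. Among peaks that touched a protein-coding gene span there were 74.7. That last set, called inside genes below, includes peaks over gene starts. The DNA covered by desert peaks was 2.70 Mb in the control list and 0.865 Mb in the Znhit1-CKO list, or 32.1% of the control length. The covered length was 42.2% of the control length at other intergenic peaks and 65.6% inside genes.

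Peak by peak, 1003 of the 4541 desert control peaks, or 22.1% (95% interval 20.9 to 23.3, exact binomial), were overlapped by at least 1 bp of a Znhit1-CKO peak. Such peaks are called shared, or peaks with a counterpart. Over the whole control list the share overlapped was 49.3%. The remaining 3538 desert control peaks (77.9%) had no counterpart, against 50.7% of the whole list. The share with a counterpart was 34.7% (34.0 to 35.4) at other intergenic peaks and 63.4% (62.9 to 64.0) inside genes. The odds of a counterpart for a desert control peak were 0.261 times those of all other control peaks (95% interval 0.243 to 0.281, Woolf). Against other intergenic peaks alone the odds ratio was 0.533 (0.494 to 0.576).

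Desert peaks were also narrow, and width goes with sharing. Control desert peaks spanned 205 to 2921 bp with a median of 522 bp, and 47.1% were under 500 bp. The medians were 594 bp at other intergenic peaks and 1007 bp inside genes. In deserts the share with a counterpart was 7.59% for the 725 control peaks under 300 bp, 20.8% for the 1290 of 500 to under 750 bp and 71.6% for the 67 of 1500 bp or more. In each width class the desert share was the lowest of the 3 kinds of location. At 1000 to under 1500 bp it was 48.9% (44.1 to 53.8) in deserts, 62.1% (60.1 to 64.1) at other intergenic peaks and 86.5% (85.7 to 87.3) inside genes. At 1500 bp or more, the interval in deserts, 59.3 to 82.0, overlapped that of other intergenic peaks, 81.1 to 86.7. With log2 width as a covariate in a logistic model, the odds ratio of desert against all other control peaks was 0.451 (0.416 to 0.490), and against other intergenic peaks it was 0.617 (0.568 to 0.670).

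**Figure D1:**
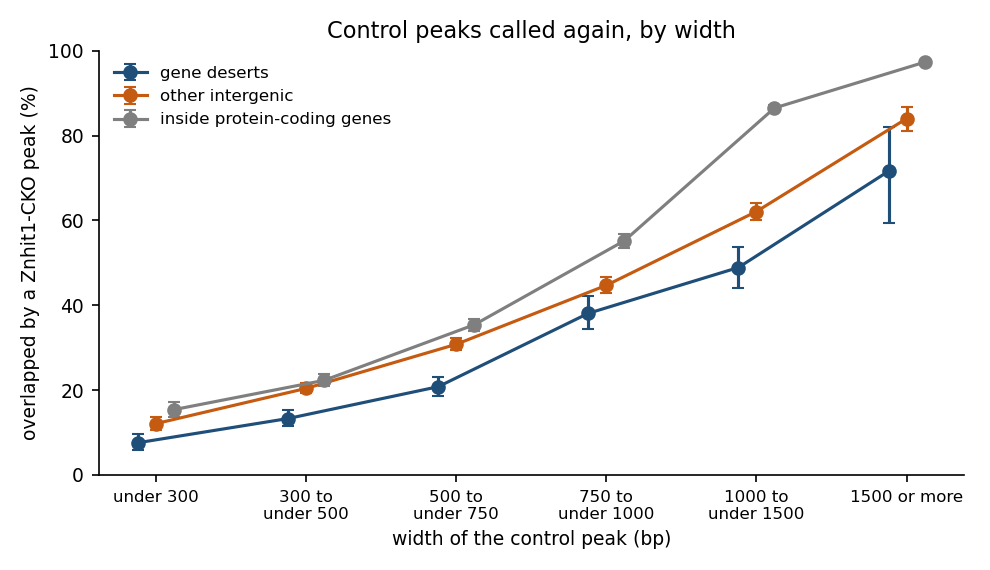
Share of control peaks overlapped by a Znhit1-CKO peak (%, vertical axis) by width of the control peak in bp (horizontal axis), for peaks in gene deserts, other intergenic peaks and peaks inside protein-coding genes; bars are exact 95% binomial intervals. The desert points rise from 7.59% to 71.6% and lie below both other lines in each class.

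Sharing fell with distance from genes, on both sides of the 100 kb limit. Over all control peaks it was 63.4% inside genes, 45.5% within 1 kb of one, 39.0% at 1 to 10 kb, 35.1% at 10 to 50 kb and 30.2% at 50 to 100 kb. Among desert peaks it was 24.7% of 2127 peaks at 100 to 200 kb, 22.2% of 1720 at 200 to 500 kb and 14% of 694 beyond 500 kb. The median width of desert control peaks fell along the same bins, from 545 to 518 and 449 bp. Just inside the limit, at 100 to 110 kb, 23.1% of 321 control peaks were shared, and just outside it, at 90 to 100 kb, 27.3% of 411.

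**Figure D2:**
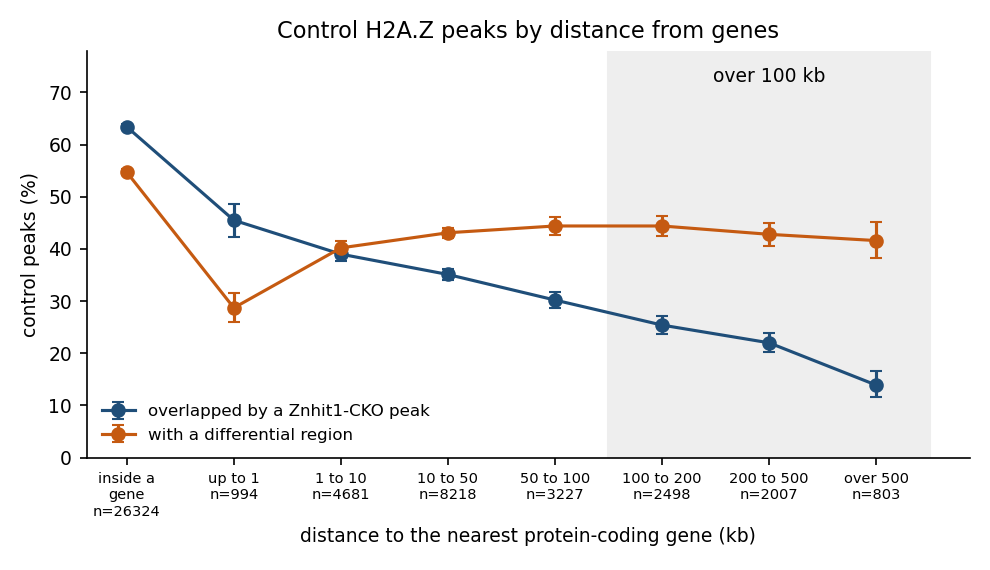
Share of all control peaks (%, vertical axis) that were overlapped by a Znhit1-CKO peak or held a differential region, by distance to the nearest protein-coding gene in kb (horizontal axis, with the number of peaks per bin); bars are exact 95% binomial intervals, and the shaded bins lie over 100 kb away, before peaks near lncRNA and pseudogene ends are removed. Sharing fell from 63.4% inside genes to 13.9% beyond 500 kb, and the share with a differential region stayed between 40.2% and 44.4% from 1 kb outward.

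The list of differential regions gave another picture of the same peaks. A differential region overlapped 1893 desert control peaks, or 41.7% (40.2 to 43.1), against 48.9% of the whole control list. The share was 43.0% (42.2 to 43.7) at other intergenic peaks. The odds ratio of desert against all other control peaks was 0.726 (0.682 to 0.772), but against other intergenic peaks it was 0.948 (0.887 to 1.01), an interval that includes no difference. It turned above 1 with log2 width as a covariate, at 1.14 (1.07 to 1.22), and when at least 50% of both intervals had to overlap, at 1.81 (1.69 to 1.94), so the direction changes with these settings. In deserts, 12.7% of control peaks under 300 bp and 63.1% of those of 1000 to under 1500 bp held a differential region, near the 11.1% and 61.8% at other intergenic peaks.

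Absence from the Znhit1-CKO list and a differential region went together in deserts more tightly than elsewhere. Of the desert control peaks with no counterpart, 1695 of 3538, or 47.9% (46.3 to 49.6), held a differential region. Of those with a counterpart, 198 of 1003, or 19.7% (17.3 to 22.3), held one. The odds ratio of shared against unshared was 0.267 (0.226 to 0.317) in deserts, 0.390 (0.365 to 0.418) at other intergenic peaks and 0.846 (0.815 to 0.878) over all peaks outside deserts. With log2 width as a covariate these odds ratios were 0.0732 (0.0589 to 0.0910), 0.102 (0.0928 to 0.112) and 0.143 (0.135 to 0.152), so the association outside deserts was strong at like width. The desert odds ratio was 0.685 times that of other intergenic peaks (0.571 to 0.822), and 0.717 times (0.587 to 0.876) with width as a covariate. Against all peaks outside deserts it was 0.316 times (0.266 to 0.376), and 0.552 times (0.457 to 0.667) with width. Both lists share the same libraries, so the differential regions are not a separate measurement of the loss.

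Seen from the differential list, 1991 of 24365 regions lay in deserts. Of these, 1709 (85.8%) were over control peaks alone, 196 (9.84%) over peaks of both lists, 53 (2.66%) over Znhit1-CKO peaks alone and 33 (1.66%) over no peak. Regions over control peaks alone made up 74.5% (73.5 to 75.5) at other intergenic sites and 37.1% (36.3 to 37.9) inside genes. The desert interval for that share was 84.2 to 87.3, above both. Control peaks with no counterpart had the same order, at 77.9% in deserts, 65.3% at other intergenic sites and 36.6% inside genes. The order of the regions is therefore not a result apart from the sharing of peaks.

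Desert peaks that stayed in the list were mostly narrower. Among 966 pairs of 1 desert control peak and 1 Znhit1-CKO peak, the Znhit1-CKO peak was narrower in 715, or 74.0% (71.1 to 76.8), against 79.0% of all pairs in the genome. The median widths were 738 bp in control and 514 bp in Znhit1-CKO, with a median log2 ratio of -0.35 and quartiles of -0.88 and 0.02. Other intergenic pairs had a median log2 ratio of -0.36, close to the desert value. In the 189 desert pairs with a differential region the median ratio was -0.87, from 997 to 480 bp, and 173 (91.5%) narrowed. In the 777 without one it was -0.25, and 69.8% narrowed. The shares over all pairs in the genome were 87.7% and 71.6%, and at other intergenic pairs 93.9% and 68.4%, near the desert values. A further 21 desert control peaks overlapped 2 Znhit1-CKO peaks each.

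**Figure D3:**
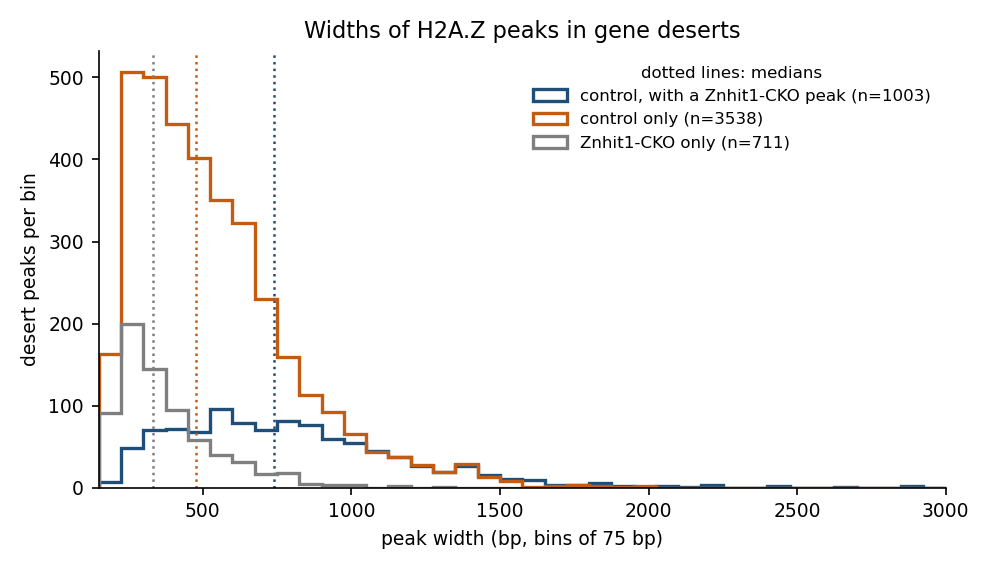
Number of desert peaks (vertical axis) by peak width in bp (horizontal axis, bins of 75 bp) for control peaks with a Znhit1-CKO counterpart, control peaks without one and Znhit1-CKO peaks without a control counterpart; dotted lines are medians. The medians were 740, 479 and 333 bp.

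Znhit1-CKO peaks with no control peak were a larger part of the Znhit1-CKO list in deserts than elsewhere, though few in number. Of the 1726 desert Znhit1-CKO peaks, 1015 (58.8%, 56.4 to 61.1) were overlapped by a control peak, against 82.1% of the whole list. The other 711 (41.2%, 38.9 to 43.6) were not, against 17.9% of the whole list and 28.2% (27.2 to 29.2) of other intergenic Znhit1-CKO peaks. Their median width was 333 bp, against 511 bp for the overlapped ones. A differential region overlapped 248 desert Znhit1-CKO peaks (14.4%), against 37.0% of the whole list. Among the 711 it overlapped 53 (7.45%, 5.63 to 9.64), close to the 6.8% (5.82 to 7.88) of such peaks at other intergenic sites. The Znhit1-CKO peaks with no control peak lay a median of 22.8 kb from the nearest control peak, and 64 (9.0%) lay within 1 kb of one. The desert control peaks with no counterpart lay a median of 81.8 kb from the nearest Znhit1-CKO peak, and 92 (2.6%) lay within 1 kb of one. The Znhit1-CKO list is the sparser one, and other intergenic peaks showed the same order, with medians of 6.44 kb for Znhit1-CKO and 16.9 kb for control peaks.

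The widest shared desert peak, at chr8:73352292-73355212, covered 2921 bp in control testes against 2603 bp in Znhit1-CKO testes. It lay 588 kb from F2rl3, which encodes a protease-activated receptor, and it held a differential region. The second, at chr13:111977686-111980544 and 159 kb from the kinase gene Map3k1, covered 2859 bp in control and broke into peaks of 229 and 1897 bp. The third, at chr10:125785505-125788135 and 178 kb from Lrig3, went from 2631 to 1633 bp. The fourth did not narrow: at chr13:28416198-28418651, inside the lncRNA gene Gm40841 and 530 kb from Sox4, a gene for an HMG-box transcription factor, it covered 2454 bp in control testes and 2620 bp in Znhit1-CKO testes. The fifth, at chr6:127329111-127331520, between Ccnd2, the gene for cyclin D2, and Parp11, went from 2410 to 1440 bp. Of these 5 only the first held a differential region, and the other 4 were in both lists with no called difference.

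The 5 widest control peaks with no counterpart were 1832 to 1997 bp wide, in the class of 1500 bp or more that held 67 of the 4541 desert control peaks. The widest, at chr12:27060550-27062546, lay inside the lncRNA gene Gm30515 and 272 kb from Sox11, another HMG-box factor gene. It was absent from the Znhit1-CKO list yet held no differential region. The other 4 each held 1 differential region. They lay at chr6:143326985-143328934 (1950 bp), between Etnk1 and the HMG-box factor gene Sox5; at chr10:22953284-22955190 (1907 bp), between the developmental regulators Tcf21 and Eya4; at chr15:88399620-88401488 (1869 bp), 199 kb from Zdhhc25; and at chr6:140307723-140309554 (1832 bp), between Capza3, whose product is an actin-capping subunit of sperm, and Plekha5. The 3 widest Znhit1-CKO peaks with no control peak were narrower, at 1324 bp (chr7:71312455-71313778), 1164 bp (chr14:94396900-94398063) and 1163 bp (chr18:55546636-55547798). None of these 3 held a differential region. The 2 desert control peaks farthest from any protein-coding gene, at chr14:90775268-90775821 (554 bp) and chr14:90702642-90703296 (655 bp), were 2238 and 2231 kb from one. Both had no counterpart, and both held a differential region.

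The desert peaks were spread over many deserts. RefSeq left 1689 gene-free stretches of over 200 kb between protein-coding genes, with 770 Mb of desert, in which unsequenced gaps of the assembly are counted. Of these, 992 (58.7%) held a control peak and 658 a Znhit1-CKO peak. Both kinds of peak occurred in 628, control peaks alone in 364, Znhit1-CKO peaks alone in 30 and neither in 667. The 1689 include 144 deserts on the X chromosome, with 22 control peaks, and 152 on the Y, with 0. The counts and densities in this paragraph were not split by chromosome. There were fewer Znhit1-CKO than control peaks in 837 deserts, more in 65 and equal numbers in 120. Deserts with 10 or more peaks numbered 114 in control and 16 in Znhit1-CKO. Peaks were sparser in long deserts: deserts of 100 to 250 kb held 9.82 control and 4.30 Znhit1-CKO peaks per Mb, and those over 1000 kb held 3.54 and 1.25.

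Deserts differed widely in how many of their peaks stayed. Among the 114 deserts with 10 or more control peaks the share with a counterpart had a median of 21.4%, quartiles of 10.0% and 36.2%, and a range from 0 to 71.4%. The most populated desert, chr2:45217443-48714108, lies between Zeb2, which encodes a zinc-finger repressor, and the activin receptor gene Acvr2a. It held 37 control peaks, 7 of them shared, 10 Znhit1-CKO peaks and 16 differential regions. The desert chr14:88571397-92913699 between the protocadherin genes Pcdh20 and Pcdh9 held 35 control peaks, 3 of them shared, 6 Znhit1-CKO peaks and 22 differential regions. The desert chr18:55092592-56287484 between Zfp608 and Gramd3 held 31 control peaks, 12 of them shared, 18 Znhit1-CKO peaks and 8 differential regions. Their shares of 18.9%, 8.57% and 38.7% show the spread among deserts of nearly equal peak number. Counting error is large with so few peaks per desert, and it was not separated from differences among deserts.

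**Figure D4:**
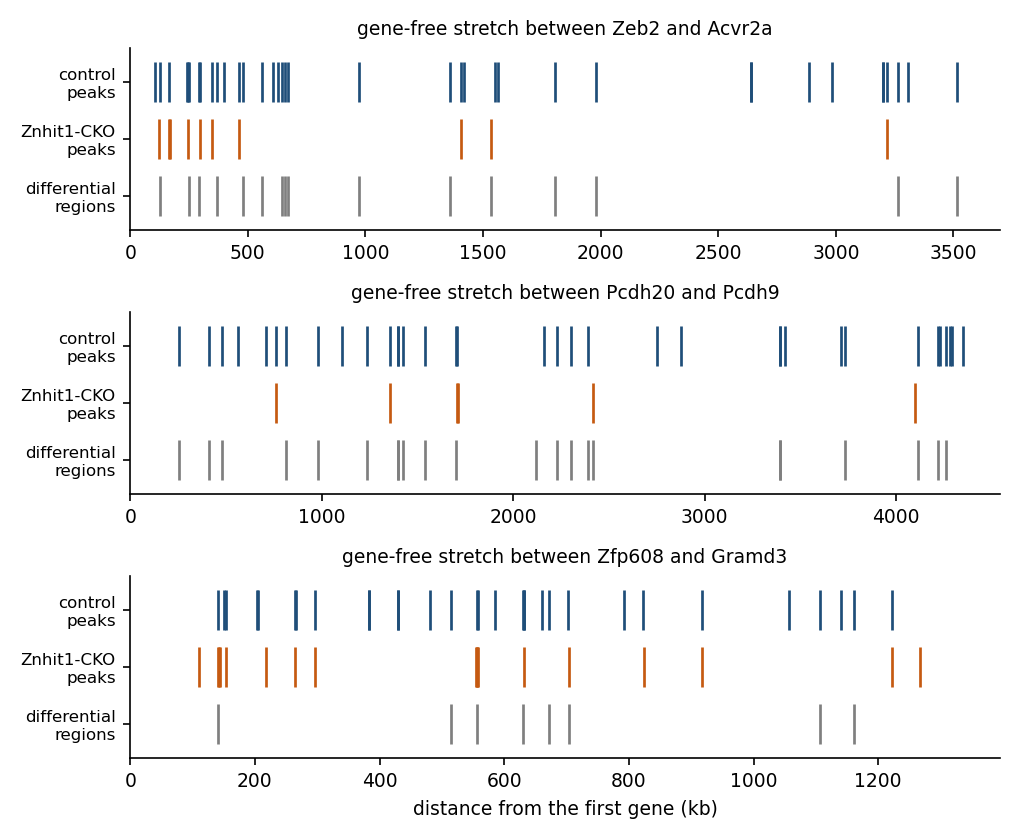
Positions of control peaks, Znhit1-CKO peaks and differential regions (rows of ticks, 1 tick per interval) in the 3 deserts with the most control peaks; the horizontal axis is the distance from the first named gene in kb. The Pcdh20 to Pcdh9 desert shows 35 control and 6 Znhit1-CKO ticks, and the Zfp608 to Gramd3 desert shows 31 and 18.

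Some deserts stood at the ends of this range, and they were picked after their values were seen. In 8 of the 114 deserts no control peak had a counterpart. The Olfm4 to Pcdh17 desert on chromosome 14 had 23 control peaks, none shared, and 1 Znhit1-CKO peak elsewhere in it. The desert between Nr2f1, a nuclear receptor gene, and Arrdc3 had 13 and 2. The Etnk1 to Sox5 desert had 12 and 1, and the Capza3 to Plekha5 desert had 10 and 0; these hold 2 of the widest lost peaks above. At the other end, the Enc1 to Arhgef28 desert on chromosome 13 had 14 control peaks, 10 of them shared, and 15 Znhit1-CKO peaks. The Adgrl2 to Adgrl4 desert on chromosome 3, between adhesion receptor genes, had 31 and 19 with 12 shared, as many control peaks as the Zfp608 to Gramd3 desert. The Nmbr to Cited2 desert on chromosome 10 had 20 and 16 with 11 shared. Over all deserts, 65 had more Znhit1-CKO than control peaks. Those with the largest excess had too few control peaks to be among the 114. The Unc5b to Pcbd1 desert on chromosome 10 and the Ncam1 to Plet1 desert on chromosome 9 each had 0 control and 3 Znhit1-CKO peaks, with 1 and 0 differential regions. The Sox9 to Slc39a11 desert had 1 control peak, which was shared, and 4 Znhit1-CKO peaks. Sox9 encodes the transcription factor that directs Sertoli cell fate. None of the 3 unshared peaks beside Sox9 held a differential region.

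Deserts beside developmental transcription factor genes were dense in peaks. Of 121 such deserts, 99 (81.8%, 73.8 to 88.2) held a control peak, against 58.7% of all deserts. Together they held 629 control peaks, or 10.9 per Mb, against 5.90 per Mb over all deserts. All deserts include 144 on the X chromosome, with 22 control peaks, and 152 on the Y, with 0. On the autosomes alone the density was 6.78 per Mb. The families were not split by chromosome. Deserts beside adhesion and synapse genes were long (median 627 kb against 214 kb over all deserts), and 88 of 118 (74.6%, 65.7 to 82.1) held a control peak, at 4.00 per Mb. Of 20 deserts beside chemoreceptor genes, such as those for olfactory and vomeronasal receptors, 3 held a control peak, with 4 control and 4 Znhit1-CKO peaks in all. Those 20 were short, with a median of 65.5 kb. Up to 100 kb, 2 of 11 such deserts (18.2%) held a control peak, against 35% of all deserts of that length. At 100 to 250 kb it was 0 of 6, against 53.2% of all deserts, and over 1000 kb 0 of 2, against 82.2%. The 1 such desert of 250 to 500 kb held a control peak. These differences within length classes were not tested. A counterpart was present for 21.1% (18 to 24.5) of control peaks beside transcription factor genes, for 15.0% (12.1 to 18.4) beside adhesion and synapse genes and for 23.3% (21.9 to 24.7) in deserts beside none of the 3 families. The first of these intervals overlaps the last, and the interval for adhesion and synapse genes lies below it. Sharing also fell with desert length, to 18.2% in all deserts over 1000 kb from 25.6% at 100 to 250 kb, so the families were compared within length classes, a split made after these values were seen. Over 1000 kb, where 348 of the 512 adhesion and synapse peaks lay, the share was 13.5% (10.1 to 17.6) beside those genes and 20.2% (17.6 to 22.9) in deserts beside none of the families. At 500 to 1000 kb the order was the other way, at 26.3% (17.8 to 36.4) and 20.8% (18.1 to 23.8), with intervals that overlap. In each shorter class the share was again lower beside adhesion and synapse genes. At 250 to 500 kb it was 7.14% of 42 peaks (upper limit 19.5) against 26.8% (lower limit 23.8), so these intervals do not overlap. The classes below that held 14 and 13 such peaks. Their shares were 7.14% against 24.9% at 100 to 250 kb and 7.69% against 27.1% up to 100 kb, with intervals that overlap. The peak density beside transcription factor genes was the higher one in each length class, for example 6.86 per Mb over 1000 kb and 15.1 per Mb at 250 to 500 kb, against 3.39 and 8.69 beside none of the families.

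Some deserts of these families with many control peaks are named here, picked with their values known. The Med13l to Tbx3 desert beside a T-box gene held 24 control peaks, 2 of them shared. The desert between Rnf144b and Id4, a helix-loop-helix inhibitor gene that marks spermatogonial stem cells, held 21 control peaks, 2 of them shared, and 12 differential regions. The desert between Tmem182 and the POU factor gene Pou3f3 held 23 control peaks with 1 shared. More were shared in the Zfp516 to Tshz1 desert, 3 of 23, and in the Bcl11a to Fancl desert, 3 of 18. The Zeb2 to Acvr2a desert described above also belongs to this family. Among adhesion and synapse genes, the Epha7 to Map3k7 desert, beside an ephrin receptor gene, held 30 control peaks with 6 shared. The desert between the nuclear receptor gene Nr5a2 and Ptprc held 23, with 8 shared and 14 Znhit1-CKO peaks; it was counted here through the symbol of Ptprc, a phosphatase gene of blood cells.

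Desert peaks stood more alone than other intergenic peaks. Another control peak lay within 10 kb of 31.6% of desert control peaks and of 60.1% of other intergenic ones. Desert control peaks with such a neighbour had a counterpart in 27.7% of cases (25.4 to 30.1), and those without in 19.5% (18.1 to 20.9). The odds ratio was 1.58 (1.37 to 1.83), and with log2 width as a covariate, a fit chosen after seeing the data, it was 1.62 (1.38 to 1.89). The other intergenic peaks showed the same order, at 37.6% (36.7 to 38.6) and 30.3% (29.2 to 31.4).

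Most desert peaks lay where RefSeq has no gene of any kind. That held for 3785 control peaks (83.4%), of which 21.1% (19.8 to 22.4) had a counterpart. Another 729 (16.1%) lay in the body of a lncRNA gene, and 26.9% (23.7 to 30.3) of those had one, an interval just above that of the first set. The lncRNA gene Gm30382 held 13 control peaks, 4 of them shared, and 9 Znhit1-CKO peaks. Mir100hg, the host transcript of a microRNA cluster, held 9 control peaks, 5 of them shared, and 5 Znhit1-CKO peaks. D130009I18Rik held 9 control peaks and no Znhit1-CKO peak. These 3 were picked after their values were seen.

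A few desert peaks lay at other annotated features, also picked after their values were seen. A control peak of 2200 bp at chr7:58397945-58400144 covered the transfer RNA gene n-TEttc7, and its Znhit1-CKO counterpart was 2202 bp wide, with no differential region. The T cell receptor alpha locus Tcra (chr14:52427967-54224198) met the rule because its segments are not annotated as protein-coding genes. It held 9 desert control peaks of 339 to 864 bp, none shared and 8 with a differential region, and 3 Znhit1-CKO peaks elsewhere in it. The immunoglobulin kappa locus Igk held 4 desert control peaks with 2 shared, and the heavy-chain locus Igh held 1, which was shared.

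The X chromosome, which male cells carry in a single copy, was nearly empty of desert peaks. It held 22 desert control peaks over 57.0 Mb of desert, or 0.386 per Mb (0.242 to 0.584, Poisson), against 6.78 per Mb (6.59 to 6.98) on the autosomes. The Znhit1-CKO list had 11, or 0.193 per Mb, against 2.57. Outside deserts the X held 6.69 control peaks per Mb and the autosomes 24.6. The ratio of density outside to inside deserts was 17.3 on the X and 3.63 on the autosomes, so the shortfall on the X was larger in deserts than outside them. Copy number was not separated from other differences between these chromosomes. The 22 X peaks were 213 to 1247 bp wide, 6 were shared and 6 held a differential region. Among the autosomes the control density ran from 4.78 per Mb on chromosome 6 to 10.1 on chromosome 10, and the share with a counterpart from 14.9% on chromosome 19 to 27.9% on chromosome 3. On the Y chromosome no desert peak was listed in either genotype over 47.0 Mb. The Y was nearly empty outside deserts too, with 6 control and 8 Znhit1-CKO peaks over 43.7 Mb.

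**Figure D5:**
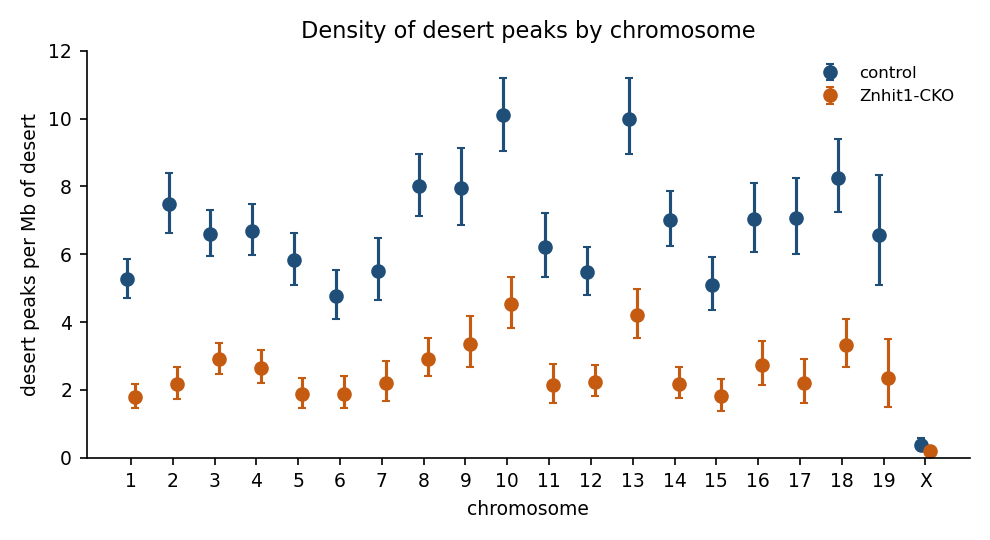
Desert peaks per Mb of desert (vertical axis) on each autosome and the X chromosome (horizontal axis) for the control and Znhit1-CKO lists; bars are exact 95% Poisson intervals. The control points run from 4.78 to 10.1 per Mb on the autosomes, the Znhit1-CKO points from 1.80 to 4.53, and the X lies at 0.386 and 0.193.

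Peaks at marker genes of the cell types of the testis were counted, although H2A.Z at a gene is not its expression. A control peak lay within 1 kb of a gene end for 6 of 6 germ cell markers (Ddx4, Dazl, Sycp3, Stra8, Hormad1 and Mael), 3 of 4 Sertoli cell markers, 1 of 4 Leydig and peritubular markers and 0 of 2 blood and endothelial markers. In Znhit1-CKO the numbers were 3, 2, 1 and 0. Over all 21883 protein-coding genes, 67.7% had a control peak and 60.4% a Znhit1-CKO peak within 1 kb of a gene end, and 88.4% of those with the first also had the second. The markers are too few to be set against these shares, so they show neither which cells were in the sample nor a change in cell makeup. The part of cell composition in the desert losses was not tested. Znhit1 itself had a peak at a gene end in both lists, which says nothing about the deletion, since the lists hold no reads.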

How the data were processed

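H2A.Z ChIP-seq libraries and inputs of control and Znhit1-CKO testis cells (2 replicates each, over 30 M reads per library per the labels' protocols) were processed by the authors with MACS2 2.2.4, BWA 0.7.17, Picard 2.20.7, SAMtools 1.9 and cutadapt 2.5 on mm10, per the submitters' processing notes, which name no order or role. The deposited files hold positions only, with no score: 48752 control peaks, 31156 Znhit1-CKO peaks and 24367 differential regions, nearly all 400 bp wide, credited by the authors' name for that list to edgeR. The sources used here do not give the peak threshold, whether replicates were pooled, or the cut-off and direction of the differential list. Each list is recorded under 1 replicate's entry. Depth per library is unknown, and no value can be tested against replicates.

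Distances were computed to RefSeq GRCm38.p6 genes on chromosomes 1 to 19, X and Y: 21883 protein-coding genes, 12727 lncRNA genes and 10609 pseudogenes, from a table with no genome sequence, so peak sequence and G+C were not used here. Overlap meant 1 bp or more and was checked against bedtools 2.31.1. Shares have exact binomial intervals, odds ratios Woolf or logistic intervals (statsmodels 0.14.6), and densities Poisson intervals. The scripts (Python 3.11.15, pandas 2.3.3, scipy 1.17.1) were tested on simulated data. Named regions followed a rule: the 5 widest shared and 5 widest unshared desert control peaks, the 3 widest Znhit1-CKO peaks without a control peak, the 3 deserts with the most control peaks (ties by chromosome) and the 2 farthest control peaks. The members and lists were chosen with earlier results of these data known. Gene families at desert edges went by symbol prefix, and a desert could count in more than 1 family. Desert counts leave out 2 control and 5 Znhit1-CKO peaks beyond the outermost gene of a chromosome.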

Additional observations from a re-analysis of the deposited data

How the results depend on the processing

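The peak lists limit what can be said: 1 list per genotype, no score, no signal and unknown depth, so a peak can be missing because it fell just short of a threshold. No paired analysis was possible because values per replicate are missing from the peak lists, and for the same reason no replicate could be left out; the strength of peaks and their G+C could not be used either. Of 96 alternatives, 59 were labelled the same as the main value, 33 moved, 3 reversed and 1 weaker. For values with an interval, the same meant within the spread, or for odds ratios on the same side of 1. Peak counts have no interval, and some that differed, such as 3803 against 4541 control peaks, were also labelled the same. Of 33 shares, 17 moved and 16 stayed the same. The odds ratio of desert against other control peaks for having a Znhit1-CKO counterpart stayed below 1 in the 9 alternatives run, from 0.163 to 0.617, and that for a Znhit1-CKO peak having a control counterpart stayed below 1 in 9, from 0.192 to 0.638. Those against peaks inside genes, and against other intergenic peaks with width, and the width covariate for neighbouring peaks were added after seeing the data.

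The odds ratio for a control peak to hold a differential region was less firm. Against other intergenic peaks it was 0.948 (0.887 to 1.01). It reversed to 1.14 with width as a covariate, to 1.14 against other intergenic peaks with width, and to 1.81 when at least 50% of both intervals had to overlap. Wide peaks, fewer in deserts, cannot meet that last demand with a region of 400 bp. For the first 3 the cause was not tested.

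With a limit of 50 kb there were 7226 control and 2962 Znhit1-CKO desert peaks (41.0 per 100), a control median width of 539 bp, and counterparts for 24.8% of control and 61.6% of Znhit1-CKO peaks. With 200 kb the values were 2414, 854, 35.4, 500 bp, 19.8% and 56.1%. With peaks of 500 bp or more in both lists there were 2401 and 658 (27.4 per 100), with a median width of 730 bp, counterparts for 18.4% and 67.5%, differential regions on 55.6% of control peaks and a median log2 width ratio of -0.22. With 1 peak per desert, the widest, there were 993 and 660 (66.5 per 100), counterparts for 33.0% and 66.7%, and differential regions on 53.1%. An overlap of 50% gave 15.3%, 40.3% and 27.8% for these 3 shares, and a gap of up to 500 bp gave 23.4% and 61.6% for the first 2. Without the lncRNA and pseudogene rule, 61.4% of Znhit1-CKO peaks had a counterpart and 43.4% of control peaks a differential region.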
